A study of Rattus norvegicus with 53 samples.

Results

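The lens crystallin genes are represented here by 6 rows of the expression table, out of 32576, measured by RNA-seq in 51 whole eyes, each from a different rat. The 6 rows were chosen on their readout, with earlier results of these same data in view, so their levels and the way they moved together are given as a description without a test. They are ENSRNOG00000047175 on chromosome 20, ENSRNOG00000008700 on chromosome 10 and ENSRNOG00000050023 on chromosome 12, and, in a gamma-crystallin cluster, ENSRNOG00000032219, ENSRNOG00000014950 and ENSRNOG00000032926 on chromosome 9, called rows 1, 2 and 3 of chromosome 9 or the gamma rows below. The rule asked for each to be described with and without the eyes in which the chromosome 20 row lay below 8 on log2(CPM + 1), where CPM is the count scaled to a total of 1000000 per eye.

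Crystallins are the soluble structural proteins that fill the fibre cells of the lens and give it its refractive index. The alpha-crystallins are also chaperones of the small heat shock family, and the beta- and gamma-crystallins form a second superfamily of compact proteins built from Greek key motifs. Gamma-crystallin genes are known to be transcribed mainly in fibre cells formed early in life, and they sit in a cluster of near copies. In a whole eye, most crystallin RNA of these classes is known to come from the lens, although some is also made in the retina.

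All rats belonged to the Heterogeneous Stock (HS), an outbred population founded from inbred strains. One frozen eye per rat was used whole, without its extraocular muscles. All 51 eyes form 1 group. Per the labels, some of the rats had self-administered nicotine in another study. The sources used here do not say which rats these were, or the age, sex and cohort of any one rat. Of the 53 rats sequenced, 2 were removed by the authors and are not analysed here. The library labels are animal tags. The first 6 characters of the tag were 00077E in 39 eyes and differed in 12, and what a prefix stands for is not stated. The label had been corrected by the authors after a genotype check in 11 eyes and kept in 40. The expected counts per eye ran from 9109084 to 42146827, with a median of 16193478.

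The table pairs no row with a gene name. The RefSeq annotation of a later assembly, GRCr8, holds 1 crystallin gene on chromosome 20, Cryaa, and 1 on chromosome 10, Cryba1, and these are the candidate names of those rows. On chromosome 12 it holds 4 beta-crystallin genes. The chromosome 12 row starts 12641 bp from its neighbouring row, and Crybb2 starts 12638 bp from Crybb3. On chromosome 9, rows 1 and 2 start 9958 bp apart and rows 2 and 3 start 9984 bp apart, against 9958 bp from Crygd to Crygc and 9897 bp from Crygc to Crygb. These spacings make Crybb2, Crygd, Crygc and Crygb the candidate names, after which the chromosome 20 row is called the alpha row and those of chromosomes 10 and 12 the beta rows. The spacings of other crystallin pairs on chromosomes 9 and 12 were not compared, so other names are not excluded. The names were not read from the files, and values are therefore given by row. On Rnor_6.0, the build of the files, the rows start at position 10438444 of chromosome 20, 65161152 of chromosome 10, 49578633 of chromosome 12, and 71778323, 71788281 and 71798265 of chromosome 9.

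The 120 bases before the transcription start of the candidate genes other than Crybb2 are shown from RefSeq. They are given because the gamma rows moved together more closely than they moved with the others. The windows are chr20:9784791-9784910 on the plus strand for Cryaa, chr10:63112818-63112937 on the minus strand for Cryba1, and, all on the minus strand, chr9:73937410-73937529 for Crygd, chr9:73947348-73947467 for Crygc and chr9:73957265-73957384 for Crygb, on GRCr8. Capitals mark TGCTGA, a core of the element bound by Maf factors, and TATATA or TATAAA in Cryaa and Cryba1. In the 3 gamma windows they mark the longest run that all 3 share, CCCTTTTGTG, and the longest shared run outside it, GCTATATA, which overlaps TATATA.
Cryaa: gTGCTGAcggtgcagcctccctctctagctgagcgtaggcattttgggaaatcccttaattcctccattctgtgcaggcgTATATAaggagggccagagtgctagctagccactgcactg
Cryba1: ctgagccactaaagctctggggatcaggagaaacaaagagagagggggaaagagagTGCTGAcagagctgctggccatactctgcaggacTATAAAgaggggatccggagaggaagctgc
Crygd: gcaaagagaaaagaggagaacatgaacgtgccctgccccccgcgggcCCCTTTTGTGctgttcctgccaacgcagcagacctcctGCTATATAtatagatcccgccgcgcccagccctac
Crygc: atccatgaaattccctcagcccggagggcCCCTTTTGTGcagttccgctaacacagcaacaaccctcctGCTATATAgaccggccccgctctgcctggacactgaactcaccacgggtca
Crygb: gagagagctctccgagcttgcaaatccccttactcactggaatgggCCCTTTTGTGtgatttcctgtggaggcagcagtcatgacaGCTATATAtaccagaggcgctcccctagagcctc

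The run CCCTTTTGTG began 73 bases before the start in Crygd, 91 in Crygc and 74 in Crygb. On either strand it was found in 21 of all 33469 promoter windows of this length (0.0627%), and among 15 crystallin genes in Cryga, Crygb, Crygc, Crygd, Cryge and Crygf. GCTATATA was found in 0.182% of windows, TATATA in 2.7%, TATAAA in 6.66% and TGCTGA in 7.63%. The Cryaa window held TGCTGA from 119 bases before the start and the Cryba1 window from 64 bases before it, and none of the 3 gamma windows held it. A match is a match of letters only.

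In 3 of the 51 eyes the chromosome 20 row lay below 8, and it was nowhere near that limit in any eye. The eyes just below it had log2 values of 5.51, 4.65 and 3.22, and those just above it had 13.61, 14.31 and 14.45. In the 48 eyes above the limit the row held 12469 CPM at the lowest, 40205 at the median and 64118 at the highest, and in the 3 eyes below it held 8.33, 24.04 and 44.7 CPM. In the same order of eyes, the chromosome 10 row held 1.99, 6.78 and 9.36 CPM. The chromosome 12 row held 1.31, 7.71 and 8.71 CPM. No eye lay between these groups in either beta row, since the lowest of the 48 other eyes held 3565 and 3744 CPM.

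The gamma rows were also very low in the 3 eyes. Row 1 of chromosome 9 held 1.18, 1.26 and 5.76 CPM, row 2 held 0.808, 1.93 and 3.14 CPM, and row 3 held 0.249, 3.18 and 5.37 CPM. The first of these eyes had whole counts of 19, 13 and 4 in the 3 rows. All 6 rows were therefore lower in each of the 3 eyes than in any of the 48 others. This separation was shown by 1.03% of the 13844 rows whose median was 1 CPM or more (143 rows), and nothing is read from the members' count, since the rows were picked for it. Of the 3 eyes, 1 carried the most common tag prefix and 2 another, and 1 had a corrected label. Mitochondrial transcripts took 0.418% to 8.91% of their counts, against 0.440% to 6.85% in the other 48. In whole-eye RNA, fewer lens cells and less crystallin RNA per cell cannot be told apart.

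**Figure D1:**
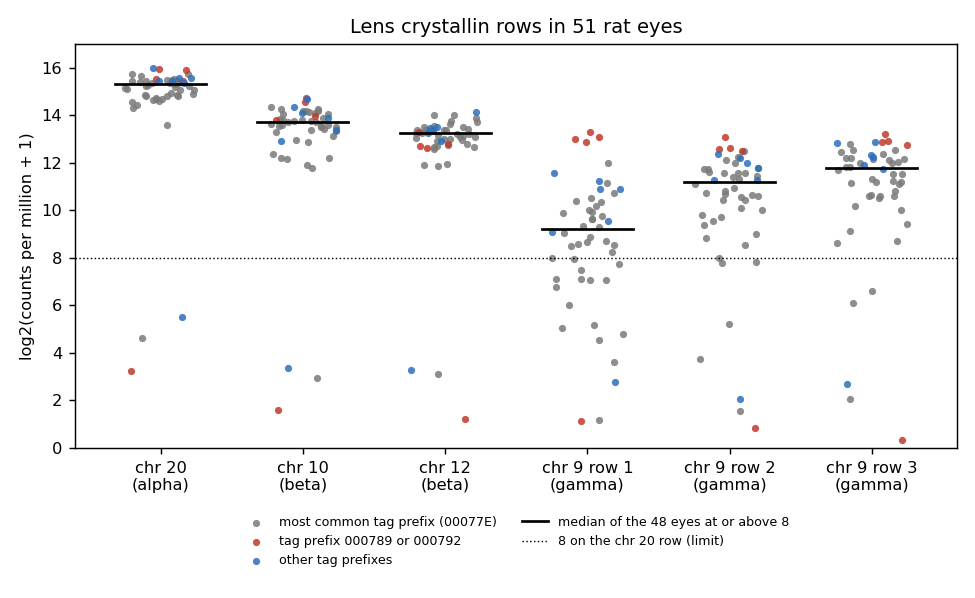
The log2(CPM + 1) of each of the 6 crystallin rows (x axis) in the 51 eyes, 1 point per eye, coloured by tag prefix; black bars are medians of the 48 eyes at or above 8 on the chromosome 20 row, and the dotted line marks 8. The 3 low eyes lie below the limit in every row, and row 1 of chromosome 9 spreads most among the others.

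Crystallin RNA made up a large part of the libraries. The 6 rows together took 2.17% of all counts at the lowest, 6.91% at the median and 12.9% at the highest of the 48 eyes, and between 0.00139% and 0.0077% in the 3 low eyes. Over all 51 eyes the median was 6.86%. The alpha row alone held a median of 4.02% and at most 6.41% in the 48 eyes. The 2 beta rows took 0.841% to 3.78%, with a median of 2.27%. The 3 gamma rows took 0.00909% to 2.84%, with a median of 0.665%, so the gamma part had the widest range as a ratio of highest to lowest and the narrowest in percentage points. Of the counts of the 6 rows, the gamma rows held from 0.222% to 24.8%, with a median of 8.93%. These are shares of fragments and were not divided by transcript length, so they do not rank the genes by molecules.

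**Figure D2:**
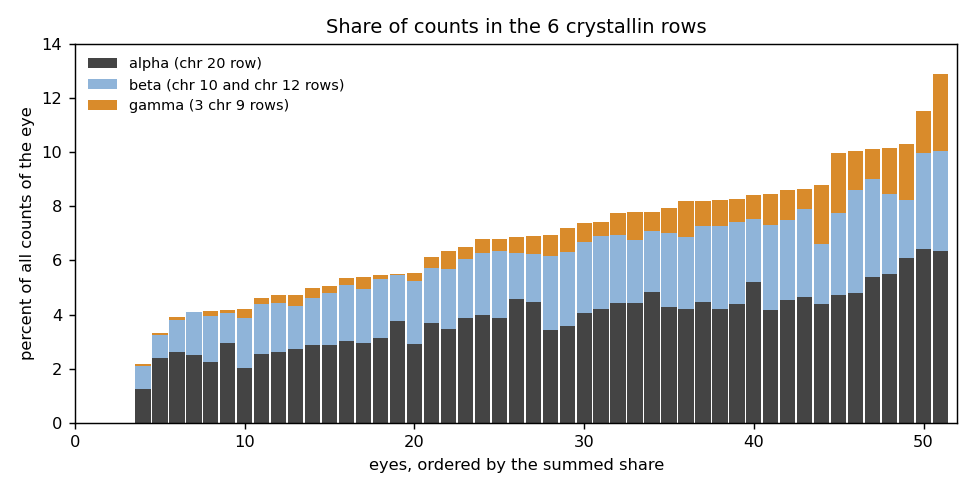
Share of all counts of an eye (y axis, percent) in the alpha, beta and gamma rows, stacked, for the 51 eyes ordered by the sum. The 3 eyes at the left hold no more than 0.0077%, and the sum reaches 12.9% at the right, where the gamma part is widest.

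Among the 48 eyes the gamma rows varied more widely than the alpha and beta rows, which themselves varied more than most rows. The standard deviation on log2(CPM + 1) was 0.46 for the chromosome 20 row, 0.71 for the chromosome 10 row and 0.50 for the chromosome 12 row. It was 2.29, 1.85 and 1.52 for rows 1, 2 and 3 of chromosome 9. The median over all 13844 rows tested was 0.36. As a ratio of the highest to the lowest eye, the chromosome 20 row spanned 5.14-fold, the chromosome 10 row 7.52-fold and the chromosome 12 row 4.78-fold. Row 1 of chromosome 9 spanned 893-fold, from 11.4 to 10180 CPM with a median of 586. Row 2 spanned 704-fold, from 12.5 to 8779 CPM with a median of 2336. Row 3 spanned 141-fold, from 67.1 to 9489 CPM with a median of 3505.

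The 4 of the 48 eyes with the least gamma RNA differed in their alpha and chromosome 12 levels, and all were low in the chromosome 10 row. In the lowest of the 48 eyes the 3 gamma rows made up 0.00909% of counts, with 11.4, 12.5 and 67.1 CPM in rows 1, 2 and 3. The same eye held 25141 CPM in the chromosome 20 row, 8062 in the chromosome 10 row and 7641 in the chromosome 12 row. In the next eye the gamma rows made up 0.0156%, beside 37764 CPM in the chromosome 20 row and 13450 CPM in the chromosome 12 row, but the chromosome 10 row held 3565 CPM, its lowest value among the 48. The third had 0.0637% in the gamma rows and the lowest alpha level of the 48, 12469 CPM, with 3896 CPM in the chromosome 12 row. The fourth had 0.0704%, with 23905 CPM in the alpha row and 3870 CPM in the chromosome 12 row. In the eyes with 0.0637% and 0.0704%, the chromosome 10 row held 4730 and 4536 CPM. In all 4 eyes that row lay below 10575 CPM, its lower quartile in the 48 eyes. Low gamma levels were thus found with low levels of the chromosome 10 row in each of the 4. The chromosome 12 row was low in some of them and, at 13450 CPM, above its median of 9632 CPM in another.

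The correlations between rows across eyes are descriptions, each over 1 library per eye. Within the gamma cluster Pearson's r in the 48 eyes was 0.93 between rows 1 and 2, 0.92 between rows 1 and 3 and 0.99 between rows 2 and 3. Between the alpha row and the beta rows it was 0.57 for chromosome 10 and 0.68 for chromosome 12, and between the 2 beta rows 0.28. The alpha row had r = 0.76, 0.69 and 0.70 with gamma rows 1, 2 and 3. The chromosome 10 row had 0.76, 0.75 and 0.78. The chromosome 12 row had 0.29, 0.34 and 0.37. These values were 0.44, 0.40 and 0.43 in the 38 eyes of the common prefix and -0.46, -0.22 and -0.11 in the 10 others. Those 10 include 4 eyes, described below, with the highest levels of gamma row 1. The same 4 had the lowest chromosome 12 level relative to the chromosome 20 row. Whether r depended on the prefix or on those 4 eyes was not tested. Spearman's rho between the alpha row and gamma rows was 0.80, 0.84 and 0.85.

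With the 3 low eyes included, most of these values changed. The range of r over the 3 pairs of alpha and beta rows rose from 0.28 to 0.68 in 48 eyes to 0.96 to 0.99 in 51 eyes. The 9 pairs of a gamma row with an alpha or beta row went from 0.29 to 0.78 to 0.65 to 0.92. The 3 pairs within the gamma cluster stayed at 0.91 to 0.99. The values near 1 for the alpha and beta rows over all 51 eyes therefore rest on 3 eyes. Leaving out the 2 eyes whose alpha level was most extreme took r with the chromosome 12 row from 0.68 to 0.56. Among the 38 eyes above the limit with tag prefix 00077E, the alpha row had r = 0.53 and 0.80 with the beta rows and 0.70, 0.62 and 0.64 with the gamma rows. Among the 10 of other prefixes it had 0.22 and 0.38 with the beta rows and 0.42, 0.57 and 0.54 with the gamma rows.

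**Figure D3:**
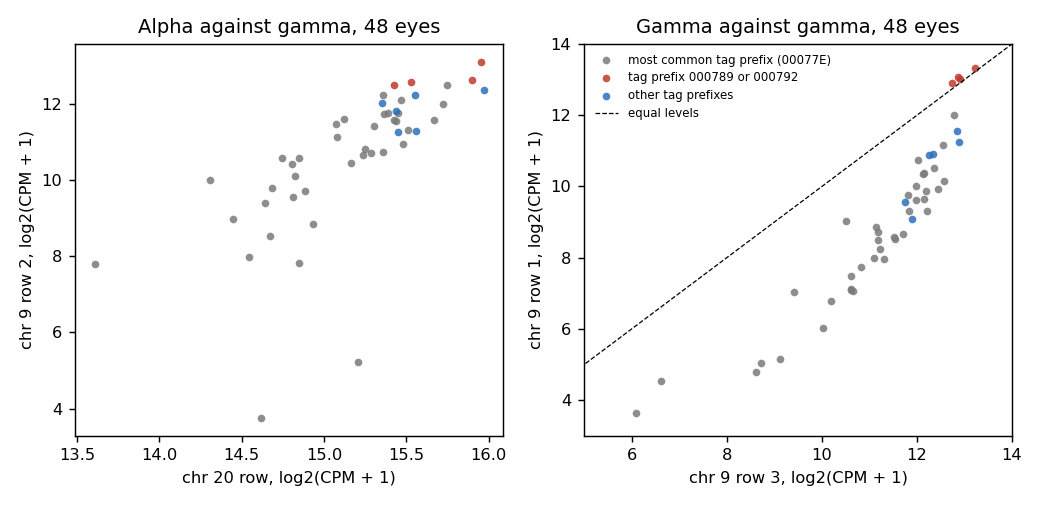
Left, row 2 of chromosome 9 against the chromosome 20 row, and right, row 1 against row 3 of chromosome 9, both as log2(CPM + 1) in the 48 eyes at or above 8, coloured by tag prefix; the dashed line marks equal levels. Row 1 lies below row 3 in 44 eyes and above it in 4 eyes, the 3 of tag prefix 000792 and 1 of a further prefix (red).

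The gamma rows did not keep one ratio to each other. In 44 of the 48 eyes row 1 had the fewest counts of the 3 and row 3 the most. In the other 4 eyes row 1 had the most. Those 4 were the 3 eyes of tag prefix 000792 that lay above the limit and the only eye of 1 further prefix, and no other eye above it carried either prefix. Their values of row 1 were 10180, 8302, 7615 and 8628 CPM, and those of row 3 were 9489, 7659, 6855 and 7500 CPM. The ratio of row 1 to row 3 was 1.07 to 1.15 in these 4 eyes and 0.0617 to 0.584 in the 44 others, with a median of 0.177. It was 0.141 to 0.413 in the 6 eyes of the remaining uncommon prefixes, inside the range of the common prefix. The fourth eye of prefix 000792 is one of the 3 eyes below the limit, and its 19, 13 and 4 counts in rows 1, 2 and 3 also put row 1 highest. So did the 88, 48 and 82 counts of another low eye, whose prefix is neither of these, and in the remaining low eye, of the common prefix, the counts were 15, 23 and 38.

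The row nearest to the cluster among those that passed the filter moved the same way. ENSRNOG00000014790 starts 32465 bp beyond row 3 on chromosome 9, and its name is not known from the files. It held 808, 675, 527 and 1550 CPM in the same 4 eyes, in the order given above. The first of them is the eye of the further prefix. In the 44 other eyes it held 0 CPM at the lowest, 1.56 at the median and 15.6 at the highest. The groups did not overlap. Of the 13844 rows tested, 3 (0.0217%) were higher in each of these 4 eyes than in any of the other 44. They were row 1 itself, ENSRNOG00000014790 and a chromosome 1 row whose levels nearly met, at no less than 544 CPM against no more than 510 CPM. The 4 eyes were singled out after their values had been seen, so no test is given. They also had the lowest levels of the chromosome 12 row relative to the chromosome 20 row, with ratios of 0.116 to 0.160 against 0.162 to 0.408 in the 44 others. Of the 4, 2 had corrected labels. Rows of one cluster of near copies can share fragments, which RSEM divides between them. The part of that division, or of sequence differences between the founder strains, in these ratios and in the correlations within the cluster was not tested.

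**Figure D4:**
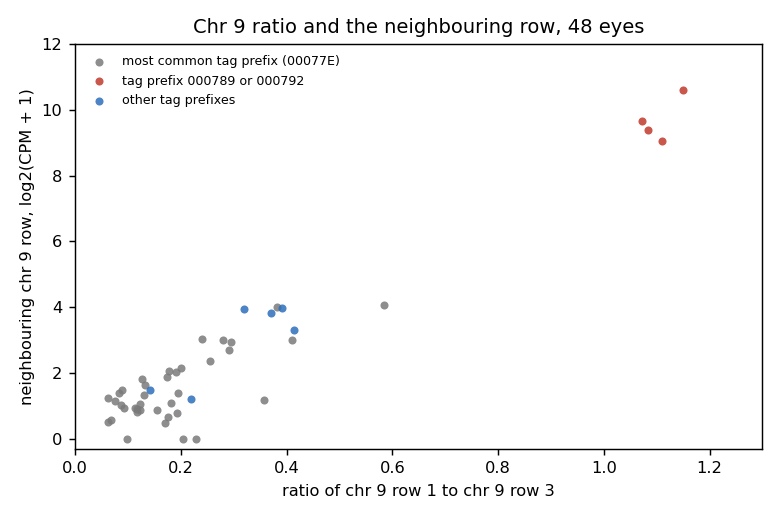
The ratio of row 1 to row 3 of chromosome 9 (x axis) against log2(CPM + 1) of the neighbouring row ENSRNOG00000014790 (y axis) in the 48 eyes at or above 8, coloured by tag prefix. The 4 eyes in which row 1 had the most counts (red) lie apart on both axes, at no less than 1.07 and 527 CPM.

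Tag prefixes were compared with limma across all 13844 rows that passed the filter on low levels, the 12 eyes of other prefixes against the 39 of the most common one. With all 51 eyes, 0.253% of the rows passed an adjusted p of 0.05 and none of the 6 crystallin rows did. Row 1 of chromosome 9 had a difference of 1.78 on the log2 scale (SE 0.86, adjusted p = 0.281 in limma). The chromosome 20, 10 and 12 rows had -1.06, -1.09 and -1.51 (adjusted p = 0.578, 0.578 and 0.34 in limma), lower in the other prefixes. Rows 2 and 3 of chromosome 9 had 0.37 and -0.04 (adjusted p = 0.892 and 0.991 in limma). In this comparison 2 of the 12 eyes and 1 of the 39 were eyes below the limit. In the 48 eyes above it, 0.0939% of rows (13) passed, and row 1 of chromosome 9 was among them. It held 541 CPM at the lowest, 2723 at the median and 10180 at the highest of the 10 eyes of other prefixes, and 11.4, 394 and 4128 CPM in the 38 of the common prefix. The groups overlapped, and the difference was 3.20 on the log2 scale, higher in the other prefixes (SE 0.64, adjusted p = 0.0132 in limma).

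The other crystallin rows did not pass in the 48 eyes. Row 2 of chromosome 9 differed by 1.94 (SE 0.57, adjusted p = 0.15 in limma) and row 3 by 1.58 (SE 0.47, adjusted p = 0.155). The chromosome 20 row differed by 0.55 (SE 0.16, adjusted p = 0.146), from 41734 to 64118 CPM in the other prefixes against 12469 to 55066. The 48 eyes were chosen by the level of this row itself, so nothing is read from its test. In all 51 eyes its difference was -1.06. The eyes left out were also the lowest in the other crystallin rows, row 1 of chromosome 9 included. The chromosome 10 row differed by 0.57 (SE 0.23, adjusted p = 0.277) and the chromosome 12 row by 0.06 (SE 0.18, adjusted p = 0.935). The neighbouring row ENSRNOG00000014790 was higher in the other prefixes by 3.30 in all 51 eyes (SE 0.64, adjusted p = 0.00893 in limma) and by 4.13 in the 48 (SE 0.62, adjusted p = 0.000269). The 4 eyes in which row 1 of chromosome 9 had the most counts are among the other prefixes in each comparison. Without them, an alternative chosen after seeing the data, 0 of 13844 rows passed in limma and 1395 had an unadjusted p under 0.05. The difference was then 2.19 for row 1 (SE 0.78, adjusted p = 0.416 in limma) and 1.45 for ENSRNOG00000014790 (SE 0.45, adjusted p = 0.349), so neither passed without those 4 eyes. Fewer eyes, 44, were compared then, and both rows were still higher in the other prefixes. Total counts overlapped, at 11850085 to 23740267 in the 10 eyes and 9109084 to 42146827 in the 38. The mitochondrial share had a median of 2.10% in the 10 and 3.41% in the 38.

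Eyes with corrected labels were compared with the others in the same way. None of the 13844 rows passed (0%), and 795 had an unadjusted p under 0.05. Of the crystallin rows, the chromosome 12 row had the largest difference, -0.77 on the log2 scale for corrected minus kept labels (SE 0.84, adjusted p = 0.909 in limma). In the 48 eyes above the limit the differences of the 6 rows ran from -0.32 to 0.35, with adjusted p-values from 0.838 to 0.959 in limma.

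No relation of the 6 rows with sequencing depth passed the test. Over the 48 eyes, r between log2 of the total and log2(CPM + 1) ran from 0.06 for the chromosome 20 row to 0.16 for the chromosome 12 row (permutation test, two-sided, adjusted p = 0.682 for each of the 6). Spearman's rho ran from 0.06 to 0.24, with adjusted p-values from 0.211 to 0.708 in the permutation test. With the 2 eyes of most extreme total left out, r ran from 0.07 to 0.29. Within the common prefix it ran from 0.04 to 0.13, and within the others from -0.03 to 0.34. The mitochondrial share of counts had r = -0.32 and rho = -0.30 with the chromosome 20 row (two-sided permutation p = 0.0268 and 0.0409, adjusted over the 6 rows 0.161 and 0.245). That r was -0.16 with the 2 eyes of most extreme share left out, -0.26 within the common prefix and 0.22 within the others. The adjusted p for r of the other 5 rows ran from 0.461 to 0.551.

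Many other rows of the table moved with the alpha row. In the 48 eyes, with CPM recomputed on totals without the 6 rows, limma found 1876 of 13838 other rows (13.6%) that varied with the level of the chromosome 20 row at an adjusted p of 0.05. Of these, 853 rose and 1023 fell. With CPM on all counts the split was 542 and 2326, and with median-of-ratios scaling it was 1108 and 588, so the balance of rising and falling rows depended on the scaling. The median slope over all rows was -0.05, -0.11 and -0.02 under these scalings. A slope is the log2 change for each log2 unit of the chromosome 20 row.

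The rows most like the alpha row were mostly far lower in the 3 low eyes. By Pearson's r over the 48 eyes, the 10 nearest rows had values from 0.84 to 0.94. They lay on chromosomes 1, 2, 8, 9, 10, 11, 12 and 19, and their names are not known from the files. One of them, ENSRNOG00000047673, is the neighbour of the chromosome 12 row whose spacing was set beside that of Crybb3 above. The closest was ENSRNOG00000010524 on chromosome 8, with 1893 to 8916 CPM in the 48 eyes and 36.8 to 67.3 CPM in the 3 low eyes. The next was ENSRNOG00000038355 on chromosome 11, with 1598 to 9287 CPM against 1.06 to 5.69 CPM. Of the 10, 9 did not overlap between the 3 low eyes and the 48, against 1.03% of the 13844 rows that passed the filter. The 10 were picked for likeness to the row that set the 3 eyes apart, so nothing is read from that count. Of the 10 rows nearest to row 2 of chromosome 9, 5 were also among the 10 nearest to the alpha row. The 5 rows with the most negative r ran from -0.66 to -0.71, and none of them separated the 3 low eyes.

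Around the members, 13 rows start within 100 kb and 7 of them passed the filter. The row 12641 bp from the chromosome 12 member, ENSRNOG00000047673, held 683 to 6467 CPM in the 48 eyes and 0.373 to 2.03 CPM in the 3 low eyes. It rose with the chromosome 20 row by 1.34 for each log2 unit (SE 0.11, adjusted p = 1.67e-13 in limma). ENSRNOG00000014790 rose by 2.79 (SE 0.59, adjusted p = 0.00129 in limma). It held 527 to 1550 CPM in the 4 eyes in which row 1 had the most counts, and at most 15.6 CPM in the 44 others. Those 4 eyes held 44051 to 63312 CPM in the chromosome 20 row, and the slope without them was not tested. ENSRNOG00000024964, a neighbour of the chromosome 10 row, fell by 0.59 for each log2 unit of the chromosome 20 row (SE 0.11, adjusted p = 0.000244 in limma). In the 3 low eyes it held 24.9 to 66.3 CPM, inside its range of 14.4 to 72.8 CPM in the others. The other 4 neighbouring rows did not pass, and both filtered neighbours of the chromosome 20 row were among them. All these fits were on the chromosome 20 row, not on the member nearby. With the chromosome 10 row itself, over the 48 eyes and on CPM of all counts, ENSRNOG00000024964 had r = -0.24. ENSRNOG00000033101, its other filtered neighbour and one that did not pass, had r = -0.71.

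Few genes of the lists chosen for lens, retina, cornea, pigment cells and blood could be named. Of 118 symbols, 6 matched a row by start position, and 5 of these passed the filter. None of the 5 passed the test against the chromosome 20 row. Six3, a homeobox factor of lens and retina development, had a slope of 0.21 (SE 0.10, adjusted p = 0.163 in limma) and 37.1 to 72.6 CPM in the 3 low eyes, inside its range of 31.3 to 86.9 in the others. Glul, the glutamine synthetase of Muller glia, had 0.12 (SE 0.06, adjusted p = 0.169 in limma). Tyr, tyrosinase of pigment cells, had 0.56 (SE 0.27, adjusted p = 0.146 in limma), Lum, a proteoglycan of the corneal stroma, 0.12 (SE 0.25, adjusted p = 0.784) and Hbb of red blood cells -0.05 (SE 0.24, adjusted p = 0.916). Each of the 5 had levels in the 3 low eyes inside its range in the 48 others. Whether the 6 rows mark the lens could thus not be checked against its defining markers by name.

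Among 701 rows named by start position, 39 rose and 51 fell with the chromosome 20 row. The names came from the study's own list of genes with a local expression association. Tyr was named as well, although the paper reports no such association for it. The 90 called are 12.8% of the named rows, close to the 13.6% over all rows. On total counts 23 rose and 110 fell, and under median-of-ratios scaling 58 rose and 33 fell. The following were chosen after their values were seen, as those with small p. Sh3bgr, a gene of a small thioredoxin-like protein, rose by 1.05 for each log2 unit (SE 0.14, adjusted p = 7.23e-07 in limma) and held 4.94 to 11.7 CPM in the 3 low eyes against 14.6 to 146 in the others. Cst3, the secreted protease inhibitor cystatin C, rose by 0.57 (SE 0.09, adjusted p = 2.65e-05 in limma), with 800 to 994 CPM in the 3 low eyes, inside the range of 463 to 1661 in the others. The ribosomal protein gene Rpl14 rose by 0.45 (SE 0.10, adjusted p = 0.00133 in limma) and Atp5mc2, a subunit of the ATP synthase, by 0.39 (SE 0.08, adjusted p = 0.00114 in limma). Itprid2 fell by 0.35 (SE 0.06, adjusted p = 0.000164 in limma) and the kinase gene Dyrk2 fell by 0.47 (SE 0.10, adjusted p = 0.00107 in limma). These 6 kept their direction and passed under all 3 scalings.

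With the alpha level in the model, few rows passed for the gamma level. In a fit added after the data were seen, with row 2 of chromosome 9 beside the chromosome 20 row, 6 of 13838 rows (0.0434%) passed in limma, 2 rising and 4 falling, and 2401 had an unadjusted p under 0.05. Of the named rows 1 passed. Gpd1, the cytosolic glycerol-3-phosphate dehydrogenase, fell by 0.15 for each log2 unit of row 2 (SE 0.03, adjusted p = 0.0136 in limma), although it held 12.0 to 26.1 CPM in the 3 low eyes against 27.3 to 87.4 CPM in the 48.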

How the data were processed

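The authors deposited 1 log2 value per gene and eye, log2(RSEM expected count + 1). Their reads were paired-end, from poly(A) RNA, and STAR aligned them to Rnor_6.0. Samples were matched to genotypes with GATK. Versions of these tools, and the gene annotation, were not given in the sources. The log2 was undone and each eye scaled to 1000000 (CPM). Of the members' counts between 1 and 500 all lay within 0.01 of a whole number, against 91.7% over all rows. There were only 2 to 7 such values per member, mostly from the 3 low eyes, so higher counts are not covered. Members and gene lists were chosen with earlier results of these data known. Comparisons used limma 3.58.1 (trend) in R 4.3.3 on log2(CPM + 1) of rows with a median of at least 1 CPM, Benjamini-Hochberg adjusted over all rows. Correlations with depth and mitochondrial share used 100000 permutations in Python 3.11.15 with scipy 1.17.1. Named genes are the members, listed genes, rows within 100 kb, and the 10 rows most and 5 least like the chromosome 20 row, beside 7 genes chosen from the supplementary list after their p-values were seen. Names came from start positions in the supplementary gene list or, for Tyr, from a start printed in the paper (within 500 bp). Alternatives in scaling, pseudocount, filter and eyes were run, and methods were tested on simulated data. Each eye is a different rat, so p-values measure spread between animals.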

Additional observations from a re-analysis of the deposited data

Results flagged for a closer look

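Among the 4 eyes of tag prefix 000792, 1 lay far below the other 3 in all 6 rows. Its log2(CPM + 1) was 3.22 in ENSRNOG00000047175, 1.58 in ENSRNOG00000008700, 1.21 in ENSRNOG00000050023, 1.13 in ENSRNOG00000032219, 0.85 in ENSRNOG00000014950 and 0.32 in ENSRNOG00000032926. The gap to the nearest of the other 3 exceeded Dixon's 95% critical value each time. The 6 values come from 1 eye, which is one of the 3 that the limit on the chromosome 20 row had already set apart, so this is a description and the usual rate of chance flags, about 1 group in 20, does not apply.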

How the results depend on the processing

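Member levels moved by less than the spread between eyes under each scaling and pseudocount tried. Shares were recomputed only without the 3 low eyes, which gave a median of 6.91% against 6.86%. With all 51 eyes the median r rose to 0.98 between alpha and beta rows and to 0.84 between gamma and other rows. Rows that varied with the chromosome 20 row numbered 542 rising and 2326 falling on total counts, 588 falling under median-of-ratios scaling, and 543 rising and 393 falling with all eyes. No eye lies between 8 and 10 on that row, so the limit of 10 gave the same eyes. The added fit on row 2 of chromosome 9 gave 1 rising and 2 falling under median-of-ratios scaling, and 5 rising with tag prefix as a covariate.

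Without the 3 low eyes, several differences between tag prefixes changed sign. They went from -1.06 to 0.55 (ENSRNOG00000047175), from -1.09 to 0.57 (ENSRNOG00000008700), from -1.51 to 0.064 (ENSRNOG00000050023) and from -0.04 to 1.58 (ENSRNOG00000032926). None of these passed the threshold. The difference of ENSRNOG00000032219 went from 1.78 to 3.20 and passed. Without the 4 eyes high in row 1 of chromosome 9 as well, these were 0.49, 0.42, 0.30, 1.34 and, for ENSRNOG00000032219, 2.19, none past the threshold. The difference of ENSRNOG00000032926 turned to 0.0034 under median-of-ratios scaling. Without the 3 low eyes, those of label correction went from -0.47 to 0.12 (ENSRNOG00000047175), from -0.41 to 0.18 (ENSRNOG00000008700) and from -0.04 to 0.35 (ENSRNOG00000032219). None of these passed the threshold. The rows passing by tag prefix in all 51 eyes numbered 35, against 6 under median-of-ratios scaling, 6 on totals without the 6 rows and 11 without the filter. In the shallowest eye 3 counts are 0.329 CPM, so levels near that are not resolved. No paired analysis was possible because all eyes form 1 group.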
